A study of Mus musculus with 9 samples.

Results

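Histone genes were followed in RNA precipitated from activated B cells together with phosphorylated UPF1 (p-UPF1). A gene was counted as a histone gene when its current or an older mouse symbol had the form of a histone gene name (Hist1h to Hist4h, or the H1f, H2ac, H2bc, H2az, H2ax, H2aw, H2af, H2bf, H3c, H3f, H4c and H4f forms, so that Macroh2a1, Macroh2a2 and H2aj entered by their older H2af names). The rule used names only and no measured value. It found 95 genes in the RefSeq annotation, of which 88 had an entry among the 27179 gene identifiers of the count table, 77 of them by the current symbol alone. These comprised 64 replication-dependent genes of the histone clusters, 11 replacement histone genes, 10 germline histone genes and 3 pseudogenes. Of the 88 genes, 13 had no count in any library and 20 had enough counts to be tested, 12 of them cluster genes and 8 replacement genes. No germline gene or pseudogene was tested.

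The cells were CD43- B cells from the spleen of wild-type mice, activated in culture for 72 h. For all 3 groups the labels give CD40L at 5 ug/mL, anti-IgM antibody at 10 ug/mL and IL-4 at 20 ng/mL, whereas the methods name an antibody against CD40. The groups were RNA precipitated with the p-UPF1 antibody, RNA precipitated with normal rabbit IgG, and input RNA of the lysate, with 3 libraries each. UPF1 is an RNA helicase of nonsense-mediated mRNA decay, and phosphorylation marks its active form. The labels give the molecule as polyA RNA, and do not say whether libraries of a group came from separate mice, so P values measure the spread between these libraries.

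Total counts were 17372510 to 24945286 per library, so 3 counts correspond to 0.122 to 0.159 CPM, the count scaled to library size. Correlations of log2 CPM over all tested genes were 0.982 to 0.997 between libraries of the same group. The B cell markers were present, with Cd79b at 1229 ± 1.51 CPM in input (SD, n = 3). Of the defining T cell genes, Cd3e was at 0.196 and Cd4 at 0.0303 CPM in input, and of the myeloid genes, Lyz2 was at 0.196 and Csf1r at 0.0305 CPM, whereas Il7r (11.2 CPM), Trac (0.608 CPM) and Adgre1 (131 CPM) were tested. Il7r and Adgre1 can also be expressed outside those lineages, and their part in the results was not tested.

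Replication-dependent histone mRNAs supply the histones that package newly made DNA in S phase. They come from intronless genes and end in a conserved stem-loop in place of a poly(A) tail. The stem-loop binding protein SLBP holds this element through processing, export and translation. When replication stops, UPF1 is recruited through SLBP and phosphorylated, and the mRNA is oligouridylated and degraded with the help of the exonuclease ERI1 (3′hExo) and the LSM1-7 ring. Replacement histones such as H3.3, H2A.Z and macroH2A are made outside S phase as well, and their mRNAs are polyadenylated and mostly spliced.

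The element that separates both classes was read from the GRCm38.p6 assembly and the RefSeq annotation. A strict form was searched (16 bases, with 6 bases that begin with GG and pair fully with the last 6, which end in CC, and a 4-base loop beginning with TT). It was found in 60 of 64 cluster genes, and in 59 of these within the last 150 bases of an annotated transcript or just after its end. Among RefSeq mRNAs of other genes, 5 of 37769 (0.0132%) held it in their last 150 bases. It is shown for genes whose RNA was higher in the p-UPF1 precipitate (H1f2, H2aw, H3c14), for genes whose RNA was lower (H4c9, H2bc4, H3c3, H4c4) and for the replacement gene H2ax. The paired bases are in capitals, with 5 flanking bases on each side, in mRNA sense with T for U.
H1f2: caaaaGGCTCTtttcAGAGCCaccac
H2aw: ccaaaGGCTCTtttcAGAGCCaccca
H3c14: acaaaGGCTCTtttcAGAGCCaccac
H4c9: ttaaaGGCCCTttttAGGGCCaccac
H2bc4: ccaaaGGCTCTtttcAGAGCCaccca
H3c3: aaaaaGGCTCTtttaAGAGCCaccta
H4c4: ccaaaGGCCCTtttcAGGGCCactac
H2ax: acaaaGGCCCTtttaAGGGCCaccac

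The 16-base elements lie at chr13:23739512-23739527 (H1f2, plus strand), chr11:58955172-58955187 (H2aw, plus), chr3:96247327-96247342 (H3c14, plus), chr13:22040966-22040981 (H4c9, minus), chr13:23684647-23684662 (H2bc4, plus), chr13:23745047-23745062 (H3c3, minus), chr13:23581950-23581965 (H4c4, plus) and chr9:44335240-44335255 (H2ax, plus). In the cluster genes the element lay 21 to 58 bases after the stop codon, in the 3′ UTR. H1f2, H2aw and H2bc4 carry the same 16 bases, although H1f2 and H2aw were higher and H2bc4 lower in the p-UPF1 libraries. H3c14 carries them too. This 16-base form was the most frequent and occurred in 43 histone genes of the table. Most H4 genes had a stem of another sequence, which 8 genes shared in the form of H4c4.

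The strict form was not found in H2ac22, H3c8, H4c1 or H2bc21. H2bc21 (Hist2h2be) is annotated as a single exon of 2667 bases on chr3:96221072-96223738, and its transcript ends with a poly(A) signal, in capitals below, 16 bases before the end at chr3:96223709-96223738 (plus strand).
H2bc21 end: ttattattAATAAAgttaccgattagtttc

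AATAAA within the last 40 bases was also found for transcripts of H2bc4 and H2bc22, and for 6 of 11 replacement genes. H2ax, which encodes the variant phosphorylated at DNA breaks, is the replacement gene with a stem-loop, and its annotated transcript continues for 822 bases past it. Of the cluster genes, 59 of 64 had 1 exon, with a median exon length of 492.5 bases, against 1807 bases in replacement genes.

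In input RNA the replacement genes held 801 ± 13.7 CPM in all and the cluster genes 36.1 ± 1.58 CPM (SD, n = 3). Cluster genes made up 0.00355% of input counts, in the libraries labelled as polyA RNA. For such a level in input, fewer cells in S phase, less histone RNA per cell and loss at selection of polyA RNA cannot be told apart. Per length, H2az1, which encodes the variant H2A.Z.1, was at 178 RPKM (reads per kilobase of exon, scaled to library size) in input, and H3f3a, one of the genes for H3.3, at 113 RPKM. The H2ax level was 63.3 RPKM, and Macroh2a1 was at 26.4 RPKM. Among cluster genes, H2aw was at 10.7, H4c9 at 10.1 and H1f2 at 9.94 RPKM, and the input libraries of H4c9 overlapped those of both neighbours in this order. H2bc21, at 1.47 RPKM, was below all of these. H3f3b, the other H3.3 gene, was at 0.0907 RPKM in input and was not tested, with 2 to 10 counts in each of the 9 libraries. Of its sequence, 30.2% lies in stretches that occur elsewhere in the genome. Whether the low H3f3b counts reflect its expression or how reads were assigned to genes was not tested. The replacement sums include H3f3b at these counts.

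**Figure D1:**
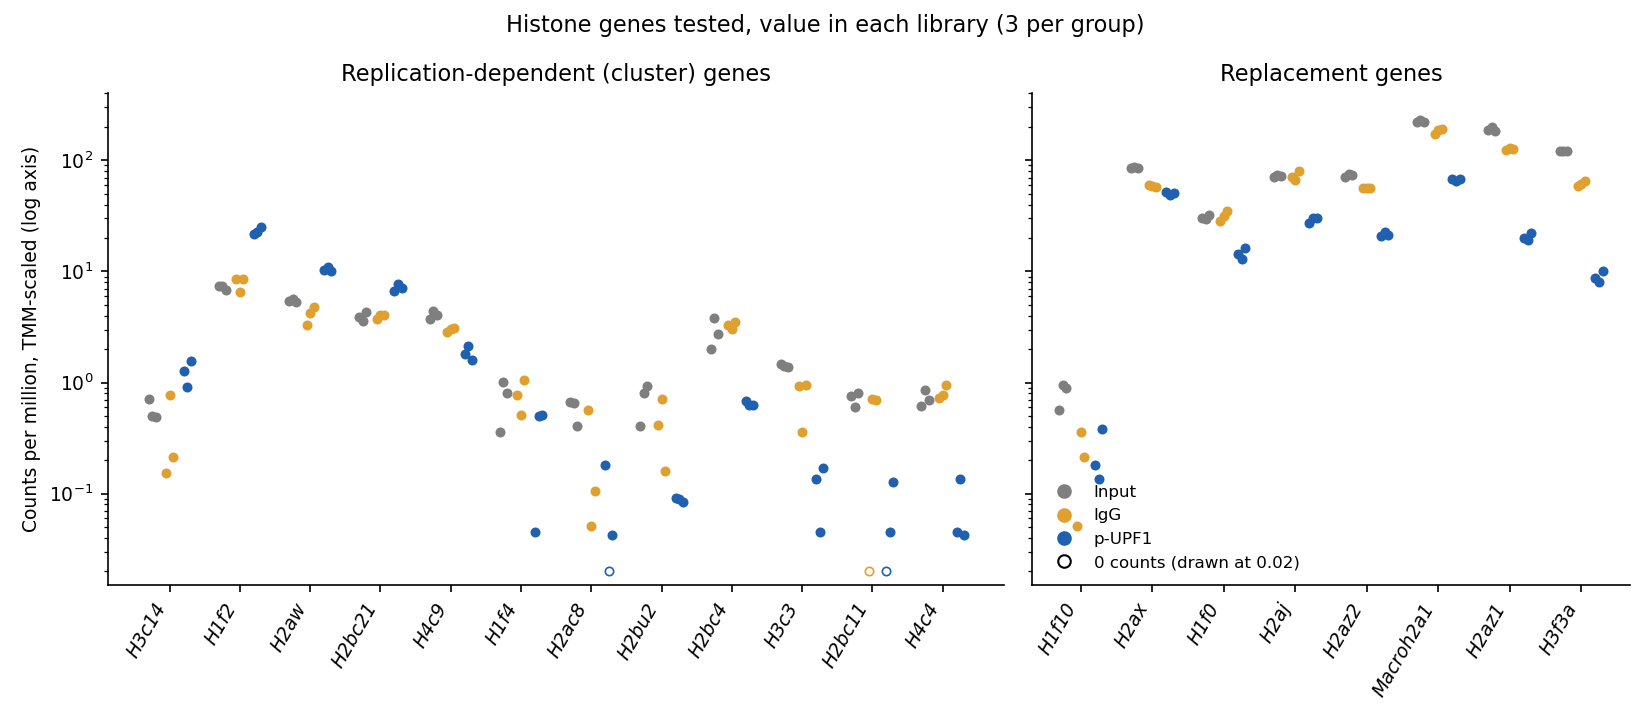
Each point is 1 library, and the y axis gives TMM-scaled CPM on a log axis for the 12 cluster and 8 replacement genes tested, ordered by their fold change over IgG. On this scaling H1f2 lay at 21.6 to 24.98 CPM in p-UPF1 libraries and at 6.58 to 8.62 in IgG, while Macroh2a1 lay at 64.6 to 68.6 and at 172 to 191 CPM.

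Higher and lower refer to TMM scaling, under which the median log2 fold change of all 13129 tested genes was -0.03 over IgG and -0.03 over input. If libraries are scaled to equal mitochondrially encoded mRNA instead, those medians become 4.66 and 5.00, and all 20 histone genes tested lie above 0 in both contrasts, so each direction below is relative to the other genes.

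Cluster genes split in direction. H1f2 (Hist1h1c), which encodes the linker histone H1.2, had 24.98, 22.4 and 21.6 CPM in the p-UPF1 libraries, against 8.56, 6.58 and 8.62 in IgG and 6.77, 7.47 and 7.39 in input. Every p-UPF1 library lay above every other library. On the log2 scale H1f2 was higher by 1.54 ± 0.11 than in IgG (SE, adjusted P = 9.44e-10) and by 1.68 ± 0.11 than in input (adjusted P = 2.7e-10).

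H2aw (Hist3h2a), an H2A gene of the small chromosome 11 cluster, had 10.2, 11.1 and 10.4 CPM in the p-UPF1 libraries, against 4.78, 4.18 and 3.28 in IgG and 5.27, 5.60 and 5.45 in input. The p-UPF1 libraries again lay apart, by 1.37 ± 0.14 on the log2 scale from IgG (SE, adjusted P = 7.89e-08) and by 0.96 ± 0.13 from input (adjusted P = 3.23e-06). An annotated exon of Trim17 overlaps H2aw on the same strand, and Trim17 itself had at most 0.306 CPM in any library.

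H2bc21, the long H2B gene without the strict stem-loop, had 7.16, 7.76 and 6.71 CPM in the p-UPF1 libraries, against 4.04, 4.08 and 3.69 in IgG and 4.34, 3.58 and 3.87 in input. The p-UPF1 libraries lay above all others, whereas IgG and input overlapped, and p-UPF1 was higher by 0.87 ± 0.14 on the log2 scale than IgG (SE, adjusted P = 2.33e-05) and by as much than input (adjusted P = 2.01e-05).

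H3c14, an H3 gene of the chromosome 3 cluster, was also higher but rests on few reads that may belong to other copies. It had 1.56, 0.903 and 1.27 CPM in the p-UPF1 libraries, against 0.213, 0.765 and 0.154 in IgG and 0.487, 0.505 and 0.713 in input, so the p-UPF1 libraries lay above all others. Over IgG its log2 fold change was 1.70 ± 0.47 (SE, adjusted P = 0.00346), and over input it was 1.14 ± 0.43 (adjusted P = 0.0231). All of its 50-base windows occur elsewhere in the genome, and the p-UPF1 group was the only group with all libraries at the count minimum (10 counts in a library of median size, and in proportion more in a larger one), so its values are uncertain. Over input, the adjusted P rose above 0.05 on leaving out p-UPF1 library C (0.0615), p-UPF1 library A (0.105), input library B (0.0831) or input library A (0.097).

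The other cluster genes with at least 1 CPM in input were lower in the p-UPF1 libraries. Of their 50-base windows, 55.4% (H4c9), 47.7% (H2bc4) and 63.3% (H3c3) occur elsewhere in the genome. Among the higher genes the share was 19.1% for H1f2, 9.15% for H2aw, 0.764% for H2bc21 and 100% for H3c14. The median over the 64 cluster genes was 57.8%, so the split of reads between copies is uncertain. H4c9, an H4 gene, had 1.60, 2.12 and 1.81 CPM in the p-UPF1 libraries, against 3.08, 3.01 and 2.82 in IgG and 4.10, 4.39 and 3.77 in input. The 3 groups were in this order without overlap, with a log2 fold change of -0.69 ± 0.19 relative to IgG (SE, adjusted P = 0.0038) and of -1.15 ± 0.18 relative to input (adjusted P = 2.48e-05). H2bc4, an H2B gene with a second, spliced and polyadenylated transcript in the annotation, had 0.632, 0.632 and 0.680 CPM in the p-UPF1 libraries, against 3.51, 3.06 and 3.28 in IgG and 2.72, 3.78 and 1.99 in input. Its input and IgG libraries overlapped, and all p-UPF1 libraries were below them, with log2 fold changes of -2.33 ± 0.28 relative to IgG and -2.12 ± 0.28 relative to input (SE, adjusted P = 9.62e-07 and 3.17e-06).

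H3c3 fell further, from 1.38, 1.41 and 1.48 CPM in input and 0.956, 0.357 and 0.923 in IgG to 0.169, 0.0451 and 0.136 in p-UPF1 libraries. Relative to IgG it was at -2.60 ± 0.55 and relative to input at -3.53 ± 0.49 on the log2 scale (SE, adjusted P = 0.0004 and 5.24e-06). It reached the count minimum in all libraries of the input group alone, where it was highest, so its test over input is not independent of the filter.

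H4c4 had 0.0421, 0.135 and 0.0453 CPM in the p-UPF1 libraries, against 0.956, 0.765 and 0.718 in IgG and 0.689, 0.858 and 0.611 in input. It had 1, 3 and 1 counts in the p-UPF1 libraries and reached the count minimum in input and IgG alone, where it was higher. Its log2 fold change of -3.36 ± 0.54 over IgG (SE, adjusted P = 2.53e-05) was the lowest among the histone genes tested, but neither this test nor the rank is independent of the filter. H2bc11 had 0.126, 0.0451 and 0 CPM in the p-UPF1 libraries, against 0.691, 0.714 and 0 in IgG and 0.811, 0.606 and 0.764 in input. IgG library C overlapped the p-UPF1 libraries, and the log2 fold change was -2.87 ± 0.98 over IgG (adjusted P = 0.013) and -3.51 ± 0.89 over input (adjusted P = 0.00173). H2bc11 reached the count minimum in all libraries of the input group alone, where it was highest, so its test over input is not independent of the filter. For H2bc11 over IgG, the adjusted P was 0.0529 without p-UPF1 library C, 0.0657 without IgG library B and 0.11 with limma-voom.

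Unlike H1f2, the linker histone H1.4 gene H1f4 was not called in either direction, and the difference between these genes was not tested. H1f4 had 0.506, 0.497 and 0.0453 CPM in the p-UPF1 libraries, against 1.06, 0.510 and 0.770 in IgG and 0.811, 1.01 and 0.357 in input. On the log2 scale H1f4 differed by -1.13 ± 0.57 from IgG (SE, adjusted P = 0.0774) and by -1.04 ± 0.57 from input (adjusted P = 0.0998), and neither passed the test. Over IgG it passed with limma-voom (-1.53) and with library size alone (-1.29), and over input with only the 2 groups compared in the fit (-1.02, adjusted P = 0.0440).

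Of the less abundant genes, H2bu2 had 2 counts in each p-UPF1 library, 3 to 14 in IgG and 8 to 23 in input, and H2ac8 had 0 to 4, 1 to 11 and 10 to 13. In neither gene did all libraries of a group reach the count minimum, which is above 10 counts in the largest input library, and both passed the filter on libraries of the groups where they were higher. H2bu2, an H2B gene next to H2aw on chromosome 11, was lower over IgG (log2 fold change -2.21 ± 0.71, adjusted P = 0.009) and over input (-2.96 ± 0.64, adjusted P = 0.000441). Without IgG library B its adjusted P over IgG was 0.0667. The H2A gene H2ac8 had a log2 fold change of -1.64 ± 0.99 over IgG (adjusted P = 0.136) and was lower over input (-2.85 ± 0.83, adjusted P = 0.00484). Without p-UPF1 library C, H2ac8 was at -3.15 over IgG (adjusted P = 0.0475).

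Of the 12 cluster genes tested, 4 were higher over IgG, 6 were lower and 2 did not pass the test, beside 40.4% of all tested genes higher and 42.2% lower. Over input, 4 were higher, 7 lower and 1 did not pass, beside 40.8% and 42.6% of all tested genes. The medians were -1.38 and -1.63 on the log2 scale. These counts cover 12 of 64 genes and depend on the low-count filter, since H3c14, one of the 4 higher genes, reached the count minimum in all libraries of the p-UPF1 group alone, H2bc11 and H3c3 in those of the input group alone, H4c4 in those of input and IgG, and H1f4 in those of the IgG group alone, as H1f10 did among replacement genes in input. With at least 1 CPM in 3 libraries required, 3 cluster genes were higher and 3 lower over IgG, and the median was 0.11. Most cluster mRNAs are short. Of the 966 tested genes under 1000 exonic bases, 76 were higher and 763 lower over IgG, and 102 higher and 741 lower over input.

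No histone gene met the criterion for p-UPF1-bound RNA (on the log2 scale, 1 or more above IgG and 2 or more above input, with an adjusted P under 0.05 in each), which 6.25% of all tested genes met. H1f2 came nearest, at 1.68 over input. Just outside the low-count filter, H3c15, whose windows are likewise all shared, had 9, 20 and 16 counts in the p-UPF1 libraries, against 0 in each IgG library and 0 to 3 in input. It met the criterion when no filter was applied.

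**Figure D2:**
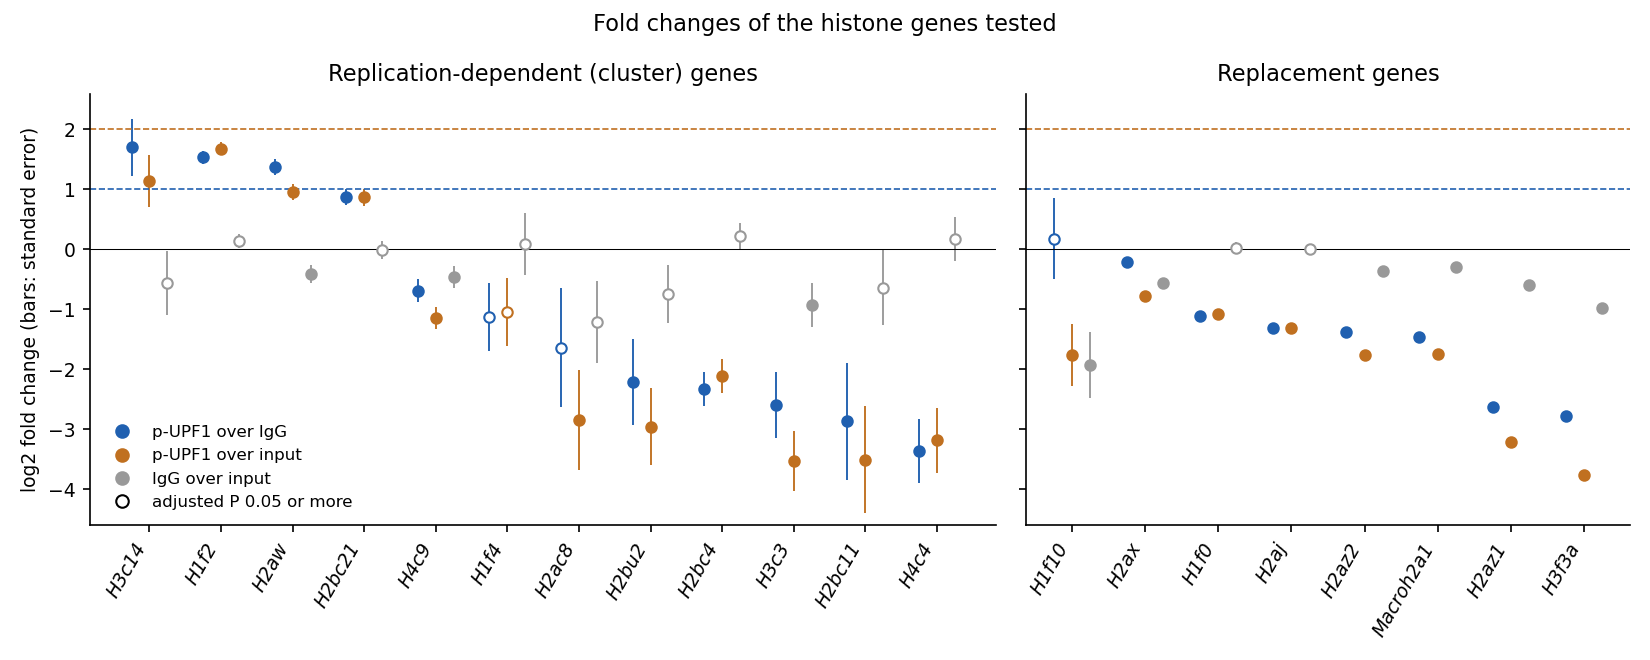
Points give the log2 fold change of each histone gene tested in the 3 contrasts, with the standard error as bars, and open points have an adjusted P of 0.05 or more. Dashed lines mark the criterion for bound RNA, 1 over IgG and 2 over input. On TMM scaling 4 cluster genes lie above 0 in both p-UPF1 contrasts and no replacement gene does, whereas all 20 genes lie above 0 with equal mitochondrially encoded mRNA.

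The 52 untested cluster genes had 0 to 0.314 CPM on average over all libraries, and 5 of them had no count. Their summed level was 1.59 to 3.08 CPM with p-UPF1, 3.62 to 6.67 with IgG and 6.46 to 8.19 in input, and these ranges overlapped between input and IgG but not with p-UPF1. The p-UPF1 mean was below the input mean for 42 of the 52 genes and above it for 4, and below the IgG mean for 31 and above it for 10. Of all 7081 untested genes with a count, 59.3% were below and 36.5% above the input mean, and 37.5% below and 42.1% above the IgG mean. H1f1, a further linker histone gene, had 0.105 CPM with p-UPF1, 0.190 with IgG and 0.555 in input.

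The replacement genes tested were mostly lower, and the difference between the classes was not tested. None of the 8 was higher in the p-UPF1 libraries, 7 of 8 were lower over IgG, beside 42.2% of all tested genes, and 8 of 8 over input, beside 42.6%. The medians were -1.35 and -1.75 on the log2 scale. The 8 include H1f10, which passed the filter through input, where it was highest. Macroh2a2, a replacement gene too low to be tested, had 8, 13 and 7 counts in the p-UPF1 libraries, against 0 to 8 in IgG and 2 to 5 in input, and was higher over input when the fit left out IgG library C.

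H3f3a had 10.1, 8.04 and 8.66 CPM in the p-UPF1 libraries, against 65.3, 61.5 and 58.8 in IgG and 122, 123 and 123 in input. The groups lay far apart, and the log2 fold change was -2.79 ± 0.07 over IgG and -3.77 ± 0.07 over input (SE, adjusted P = 2.1e-15 and 2.9e-17). Of its 50-base windows 87.4% occur elsewhere in the genome, so the split of its reads with H3f3c and pseudogenes is uncertain.

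H2az1 fell in parallel, from 185, 198 and 188 CPM in input and 127, 131 and 123 in IgG to 22.3, 19.1 and 19.9 in p-UPF1 libraries. The log2 fold change was -2.63 ± 0.06 over IgG and -3.22 ± 0.06 over input (SE, adjusted P = 2.73e-16 and 1.96e-17), and 83.5% of its windows are shared. Its paralog H2az2, with no shared window, had 21.5, 22.8 and 20.7 CPM in the p-UPF1 libraries, against 56.2, 56.9 and 56.7 in IgG and 74.1, 74.7 and 70.2 in input. The fold change of H2az2 was -1.39 ± 0.06 over IgG and -1.75 ± 0.05 over input on the log2 scale (SE, adjusted P = 5.35e-13 and 1.56e-14).

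Macroh2a1, which encodes a variant with a large macro domain, is annotated over 8507 exonic bases and also shares no window. It had 68.6, 64.6 and 67.7 CPM in the p-UPF1 libraries, against 191, 188 and 172 in IgG and 221, 230 and 223 in input. Its log2 fold change was -1.45 ± 0.05 over IgG and -1.74 ± 0.05 over input (SE, adjusted P = 4.11e-14 and 3.18e-15).

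The intronless replacement genes differed among themselves. H2aj had 29.995, 30.1 and 27.1 CPM in the p-UPF1 libraries, against 81.0, 66.6 and 70.2 in IgG and 73.0, 73.3 and 71.0 in input. H1f0, the linker histone of non-dividing cells, had 16.3, 12.8 and 14.5 CPM in the p-UPF1 libraries, against 34.8, 31.6 and 28.3 in IgG and 32.5, 29.6 and 30.5 in input. In both, input and IgG overlapped and p-UPF1 was lower. The log2 fold change over IgG was -1.32 ± 0.07 for H2aj (SE, adjusted P = 2.21e-11) and -1.12 ± 0.09 for H1f0 (adjusted P = 1.02e-08).

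H2ax had 51.4, 48.7 and 51.4 CPM in the p-UPF1 libraries, against 57.1, 58.2 and 59.5 in IgG and 85.4, 87.2 and 86.1 in input. The groups did not overlap, yet the log2 fold change over IgG was only -0.21 ± 0.05 (SE, adjusted P = 0.000733), against -0.77 ± 0.05 over input (adjusted P = 8.19e-11). H1f10, which encodes the linker variant H1X, had 0.379, 0.135 and 0.181 CPM in the p-UPF1 libraries, against 0.213, 0.357 and 0.0513 in IgG and 0.892, 0.959 and 0.560 in input. Both precipitates were below input, and H1f10 did not pass the test over IgG (0.18 ± 0.67 on the log2 scale, adjusted P = 0.814).

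The IgG precipitate also differed from input. Of the replacement genes, 6 of 8 were lower in IgG than in input, beside 34.7% of all tested genes lower and 18.2% higher, with H3f3a at -0.98 ± 0.06 on the log2 scale (SE, adjusted P = 1.6e-09). Of the cluster genes, 3 of 12 were lower (H4c9, H2aw and H3c3, log2 fold changes -0.46, -0.41 and -0.93) and none higher, and the count of 3 fell to 0 with library-size, upper-quartile or other TMM reference scaling and with DESeq2. Leaving out input library A, B or C reduced the count to 1, 0 and 0. H3c3 and, among the replacement genes called lower, H1f10 reached the count minimum in all libraries of the input group alone. Both were highest in input, so their calls here are not independent of the filter.

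Summed over each class, the p-UPF1 precipitate held more cluster histone RNA relative to replacement histone RNA than the other groups did. The cluster sum was 47.7 ± 2.91 CPM with p-UPF1, 30.9 ± 2.16 with IgG and 36.1 ± 1.58 in input (SD, n = 3). The replacement sum was 213 ± 7.25, 592 ± 22.1 and 801 ± 13.7 CPM in the same order. Cluster counts were therefore 21.1% to 23.4% of replacement counts with p-UPF1, 4.79% to 5.61% with IgG and 4.33% to 4.65% in input. This ratio does not depend on the scaling between libraries.

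The cluster sum was carried by H1f2, H2aw and H2bc21, a choice made after their values were seen. They made up 85.4% ± 1.28 of cluster counts with p-UPF1, 51.6% ± 2.47 with IgG and 46.0% ± 2.39 in input (SD, n = 3). The remaining 61 cluster genes summed to 6.97 ± 1.02, 14.96 ± 1.37 and 19.5 ± 1.69 CPM in the same order. Cluster genes with at least 1 count numbered 28 to 36 with p-UPF1, 29 to 39 with IgG and 46 to 51 in input.

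**Figure D3:**
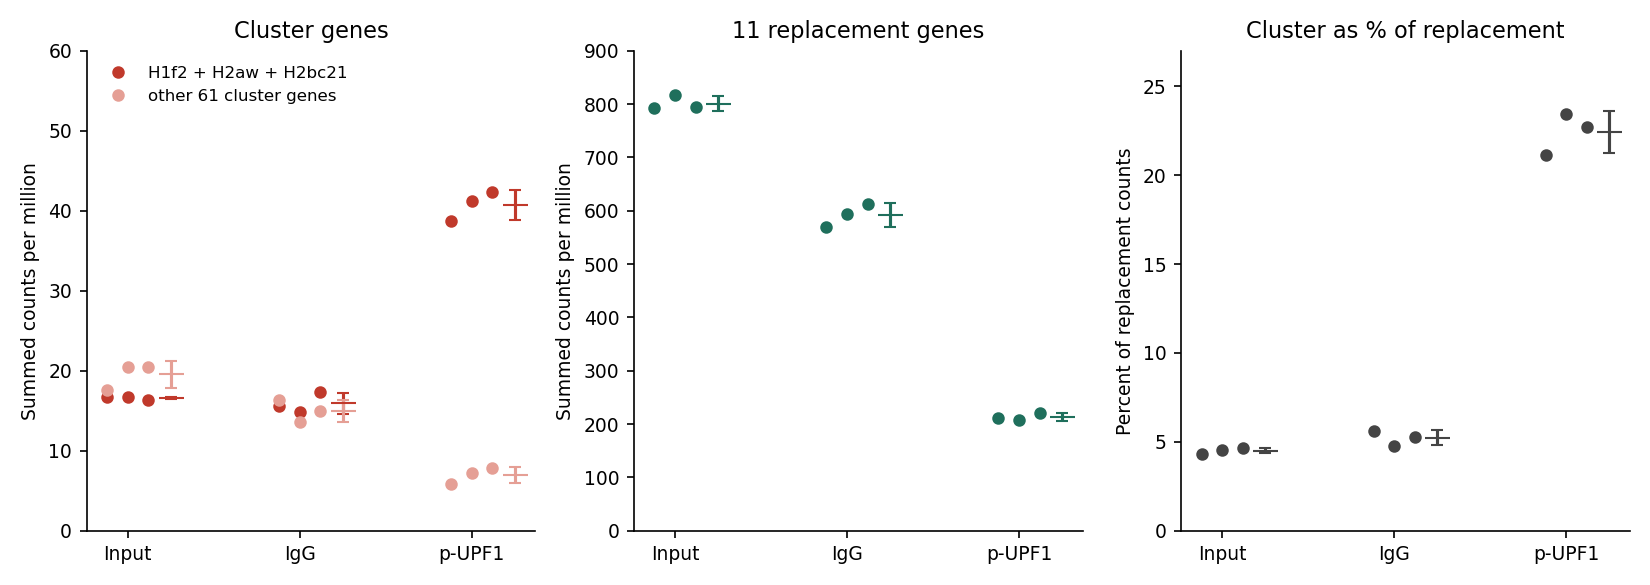
Points are libraries, and the marks beside them give the mean and SD (n = 3) of TMM-scaled CPM summed over genes, in the left and middle panels, and of cluster counts as a percent of replacement counts, in the right panel. In p-UPF1 libraries the 61 other cluster genes sum to 6.97 CPM on average, below input (19.5) and IgG (14.96), and the percent is 22.4 against 4.51 and 5.22. With equal mitochondrially encoded mRNA the sums over the 61 genes, all cluster genes and the replacement genes lie above those of the other groups in every p-UPF1 library, and the percent is unchanged.

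Transcript length moved with the fold change over all genes, and most cluster mRNAs are short. The median log2 fold change over IgG was -1.79 for the 966 tested genes with under 1000 exonic bases, -0.69 from 1000 to under 2000 bases, -0.05 from 2000 to under 3000, 0.28 from 3000 to under 5000, and 0.24 from 5000 bases on. Over input the medians of the last 2 classes were 0.27 and 0.33. For the 224 tested protein-coding genes with 1 exon the median was -0.54 over IgG. Among the genes under 1000 bases, 2.80% had a fold change over IgG as high as that of H1f2 (725 bases), and 3.62% as high as that of H2aw (508 bases). H2bc21, with 2667 bases, stood less apart, since 27.3% of the genes from 2000 to under 3000 bases were at or above it. For H4c9 (403 bases), which was lower in the p-UPF1 libraries, 20.3% of these short genes were at or above it. H4c4 and H2bc11 stood towards the other end, with 95.03% and 86.2% of the short genes at or above them. Both rest on 0 to 3 counts in the p-UPF1 libraries and passed the filter through groups in which they were higher, so these low ranks are not independent of the filter.

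The replacement genes were spread over the ranks for their length. Among genes of 1000 to under 2000 bases, 98.5% were at or above H3f3a and 97.6% at or above H2az1, against 70.7% for H2az2, 68.4% for H2aj, 37.5% for H2ax and 28.2% for H1f10. For H1f0 the share was 82.3% of the genes from 2000 to under 3000 bases. Among the 4063 genes of 5000 bases or more, 96.8% were at or above Macroh2a1. These shares describe ranks within these libraries, and the part of length in the fold changes was not tested.

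**Figure D4:**
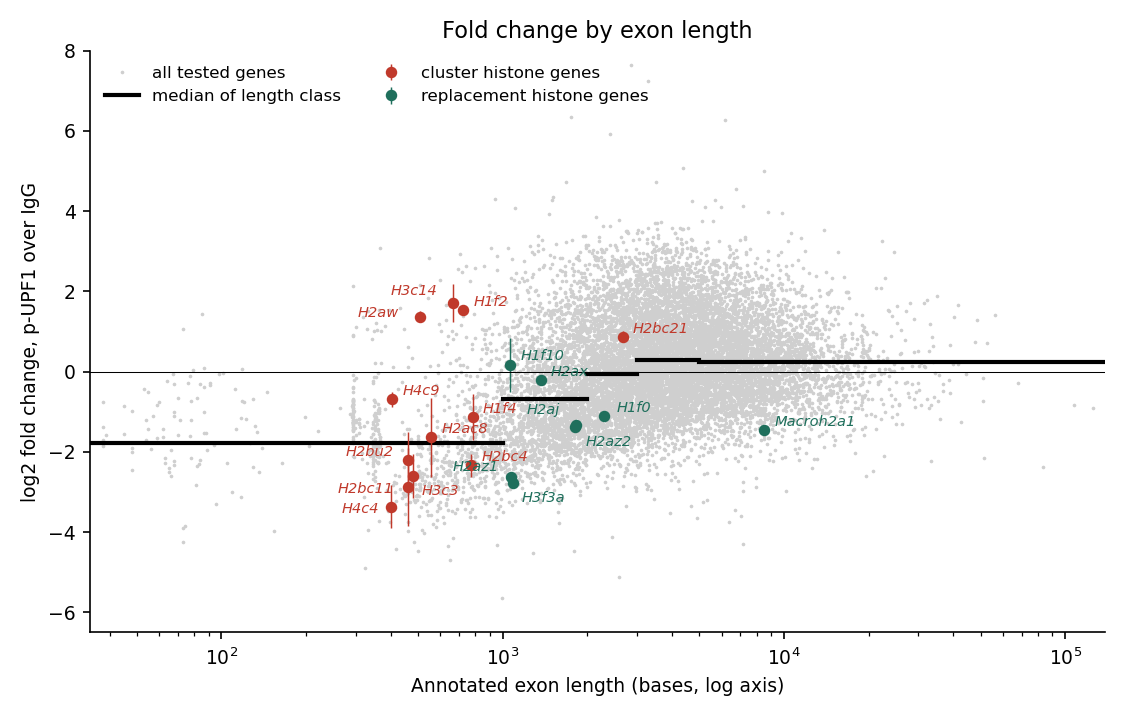
Grey points are tested genes with a known exon length, which is on the x axis (bases, log axis), and the y axis gives the log2 fold change of p-UPF1 over IgG on TMM scaling, with the standard error for histone genes and black lines for the median of each length class. H1f2, H2aw and H3c14 lie above the median of -1.79 for genes under 1000 bases and above 0, and H3f3a and H2az1 below the median of -0.69 for 1000 to under 2000 bases. Under equal mitochondrially encoded mRNA all these histone genes lie above 0.

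The mRNAs of the factors that make and destroy histone mRNA were examined as well. Of 20 genes for histone transcription and 3′ end formation, 5 were higher and 14 lower over IgG, beside 40.4% and 42.2% of all tested genes, with a median of -0.83 on the log2 scale. Over input 5 were higher and 13 lower, beside 40.8% and 42.6%, with a median of -1.05. Slbp itself had 28.0 ± 0.197 CPM with p-UPF1, 81.5 ± 5.97 with IgG and 82.8 ± 2.20 in input (SD, n = 3), with a log2 fold change of -1.54 over IgG (adjusted P = 2.36e-13).

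In contrast, Lsm11, which encodes a subunit of the U7 snRNP that cleaves histone pre-mRNA, was higher at 83.0 CPM against 26.9 in IgG (1.63 on the log2 scale). Casp8ap2 (FLASH), its partner in cleavage, was higher by 0.88 over IgG and 1.36 over input. Zfp473, a further U7-associated protein, was higher by 0.54 and 1.12. Npat, the histone gene transcription activator, was lower (-0.64 and -0.23), and so was the U7 subunit gene Lsm10 (-0.72 and -1.32). The Sm ring genes Snrpg, Snrpd3, Snrpe and Snrpf had log2 fold changes of -3.39 to -2.84 over IgG, and Snrpb was at -1.56. Of 7 genes for export and translation of histone mRNA, Slbp included, 2 were higher and 5 lower over IgG, beside the same 40.4% and 42.2%. Mif4gd (SLIP1), which joins SLBP to translation initiation, was lower (-0.68).

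Of 25 genes for histone mRNA decay, 8 were higher over IgG, 14 lower and 3 did not pass the test, beside 40.4% of all tested genes higher and 42.2% lower, with a median of -0.26. Over input 12 were higher and 13 lower, a split near the 40.8% and 42.6% of all tested genes, with a median of -0.18. The bound criterion, met by 6.25% of all tested genes, was met by 3 of the 25, Upf1 (2.08 over IgG and 2.04 over input on the log2 scale), the UPF1-binding NMD factor Smg5 (2.62 and 2.63) and the decapping activator Dcp1a (2.21 and 2.29). Pnrc2, a partner of UPF1 and DCP1A, was higher by 2.17 and 1.65.

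Eri1 had 263 CPM with p-UPF1, 127 with IgG and 145 in input, and was higher by 1.05 over IgG and 0.86 over input on the log2 scale. Tut7, the uridylyltransferase, was higher by 0.81 and 1.32, whereas its paralog Tut4 was lower (-0.26 and -0.18). The genes of the LSM1-7 ring were lower over IgG in 6 of 7 cases, beside 42.2% of all tested genes, from -2.58 for Lsm5 to -0.72 for Lsm6. Fold changes moved with transcript length over all genes, and the part of length in these gene lists was not tested. Lsm1 did not pass the test over IgG (0.17, adjusted P = 0.0975) and was lower over input (-0.27, adjusted P = 0.0127). The decapping enzyme gene Dcp2 had 172 CPM with p-UPF1, 356 ± 87.2 with IgG and 129 in input, so it was lower over IgG (-1.05) and higher over input (0.42). For the kinases that phosphorylate UPF1, Smg1 was higher (0.82 and 1.15), and Atr and Prkdc were lower over IgG (-0.42 and -0.26) and higher over input (0.18 and 0.52).

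**Figure D5:**
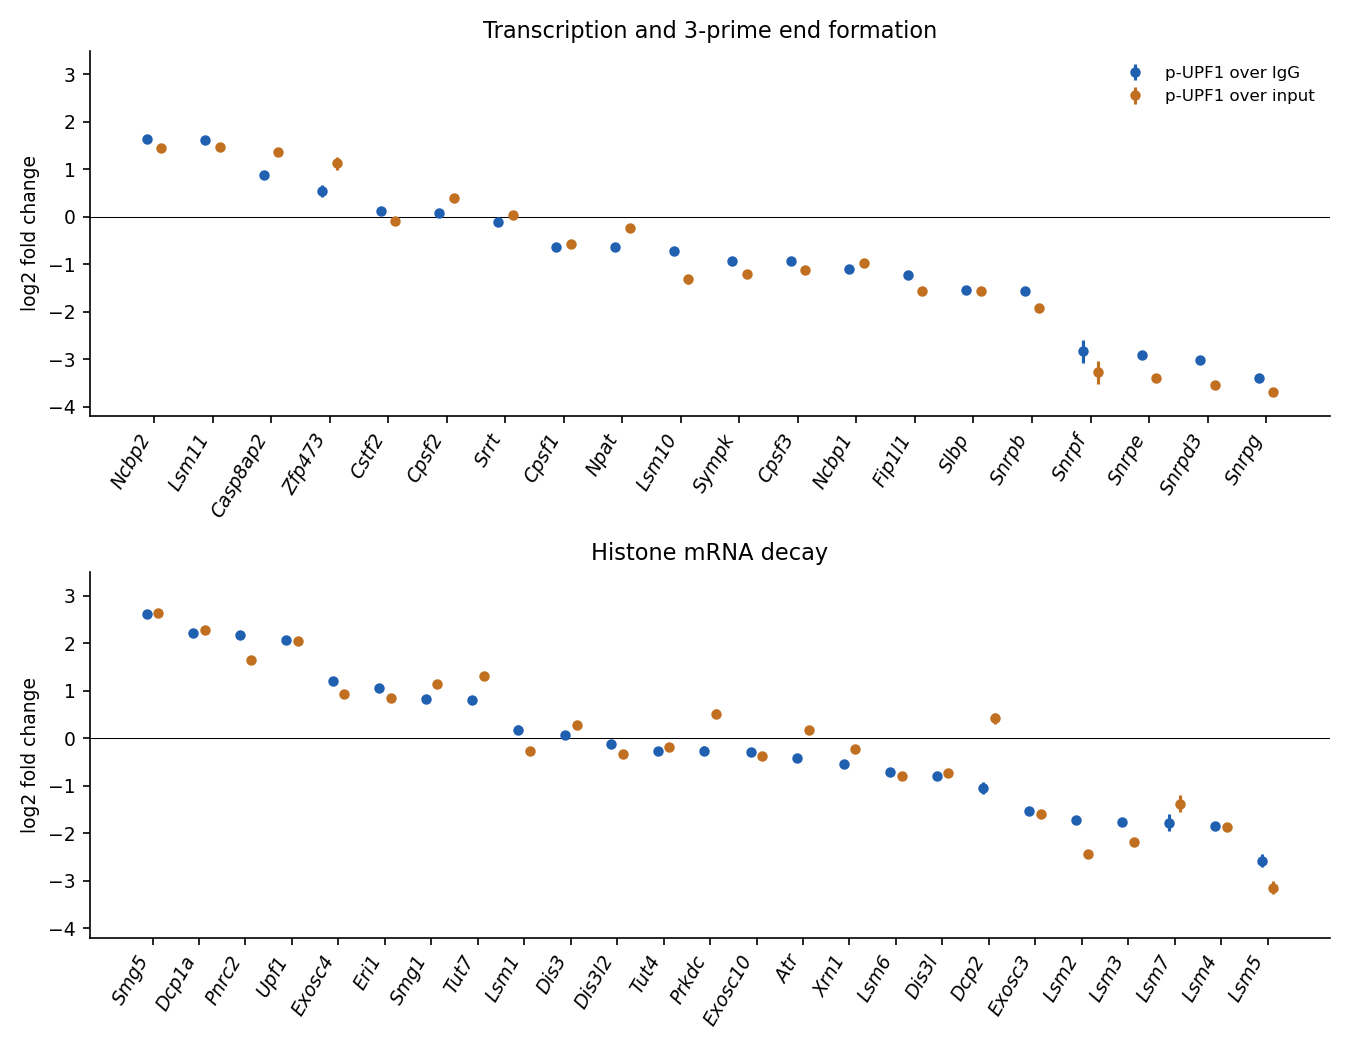
Points give the log2 fold change of p-UPF1 over IgG and over input on TMM scaling, with the standard error as bars, for 20 genes of histone transcription and 3′ end formation and 25 genes of histone mRNA decay. Smg5, Dcp1a, Pnrc2 and Upf1 lie above 1.6 in both contrasts, and Slbp lies at about -1.5. With equal mitochondrially encoded mRNA the points shift upwards by about 4.7 and 5.0.

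S phase genes were detected, with Mcm6 at 664 ± 6.03 and Pcna at 298 ± 3.65 CPM in input (SD, n = 3). Of 20 such genes, 15 were lower in the p-UPF1 libraries than in IgG and 4 higher, beside 42.2% and 40.4% of all tested genes, with a median of -0.69 on the log2 scale. Pcna, the sliding clamp of replication, was lower by 2.24 over IgG, and Mcm6, a subunit of the replicative helicase, by 1.15. Cdc6, which loads that helicase, was higher (1.52 over IgG).

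The counts per gene do not show which end of a transcript the reads cover, so stem-loop and polyadenylated forms of the same gene cannot be told apart. Whether selection of polyA RNA set the low cluster counts was not tested.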

How the data were processed

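RIP-seq libraries (NEBNext Ultra II Directional kit) were run on a NextSeq 500. The authors deposited raw read counts per NCBI Gene identifier. The submitters' processing notes name cutadapt, HISAT2, featureCounts and mm10 without versions. Strand setting and treatment of multi-mapped reads are not given for these libraries in the sources used here. Counting error understates the true error, as no molecular identifiers were counted.

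Genes were filtered with filterByExpr (minimum count 10 at the median library size, scaled to each library, and total 15) in edgeR 4.0.16 (limma 3.58.1, R 4.3.3), which left 13129 genes. Counts were scaled by TMM and fitted with 3 groups over 9 libraries (6 residual degrees of freedom). Contrasts were tested with the two-sided quasi-likelihood test and Benjamini-Hochberg adjustment over all tested genes, at an adjusted P of 0.05. "Higher" and "lower" mean past this test. Fold changes carry a prior count of 0.125. CPM are TMM-scaled, and RPKM divide them by RefSeq GRCm38.p6 exon length, known for 97.7% of tested genes. The scripts were checked on simulated data. Windows of 50 bases were matched exactly to the genome.

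Columns are lettered and labels numbered, so columns were mapped to groups but not to replicates. Alternatives were other filters, scalings, prior count and tools (DESeq2 1.42.0, limma-voom) and leaving out each library. Values per library were given for all replacement genes tested, the 10 cluster genes with the highest mean CPM and those with extreme fold changes. Members and gene lists were chosen with earlier results of these data known.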

Additional observations from a re-analysis of the deposited data

How the results depend on the processing

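Most histone genes stayed on the same side of the threshold, and the counts that moved follow. Without a low-count filter, 12 cluster genes were lower over IgG, 20 lower over input, 1 lower in IgG than in input and 1 bound (H3c15). With at least 1 CPM in 3 libraries, 3 were lower over IgG and 3 over input, and the median over IgG turned to 0.11. With only the 2 groups compared in the fit, 3 were lower over IgG with a median of 0.082, since fewer cluster genes passed the filter, and 0 were lower in IgG than in input, where H2aw (-0.31), H4c9 (-0.35) and H3c3 (-0.82) stayed in the fit. The count lower in IgG than in input was 0 with library size alone, upper-quartile factors, a TMM reference from IgG or from input and DESeq2, and 1 with DESeq2 size factors. With library size alone, the fold change over IgG turned for Cstf2 (-0.040), Srsf3 (-0.026) and Dis3 (-0.093), and with upper-quartile factors for Cstf2 (-0.015) and Srsf3 (-0.00053). The cause was not tested.

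Equal mitochondrially encoded mRNA turned the directions of both p-UPF1 contrasts. Of the cluster genes, 10 were then higher and 0 lower over IgG (median 3.23), 9 higher and 0 lower over input (median 3.40), 2 higher and 0 lower in IgG than in input, and 7 bound. Of the replacement genes, 8 were higher and 0 lower over IgG (median 3.34) and over input (median 3.29), 2 were higher in IgG than in input and 6 were bound. All tested genes shifted with them, to medians of 4.66, 5.00 and 0.24, and relative to these medians no histone gene past the test changed sign.

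Leaving out each library in turn changed the filter too, and gave 0 to 1 bound cluster genes, 0 to 4 cluster genes lower and 0 to 1 higher in IgG than in input, 7 to 11 lower over input, and 0 to 1 replacement genes higher over input. The bound gene was H3c15. The columns share the letters A, B and C across groups, which do not match the numbered replicates. Deviations of libraries from their group means correlated at -0.0046 to 0.054 over genes for the same letter, and at -0.055 to 0.022 for different letters. The same-letter values were 0.031 to 0.054 for A and B, above all different-letter values, and -0.0046 to 0.0075 for C. Whether a letter marks the same lysate is not stated, and the main fit did not take the letters as pairs. With the letter as a replicate block, an alternative chosen after seeing the data, 4 cluster genes were higher and 7 lower over IgG, 4 and 7 over input, and 2 lower in IgG than in input. H1f4 passed over IgG (-1.22, adjusted P = 0.0485) and H4c9 no longer did in IgG against input (adjusted P = 0.0522), and no other call on a histone gene or on the genes of the end formation, translation and decay lists changed. Genes of under 1 CPM are limited by depth, and genes with shared windows by how reads were assigned to copies.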

Other observations

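Histone chaperones, which carry histones between synthesis and chromatin, were counted as a further list. Of 20 genes, 7 were higher and 12 lower over IgG, beside 40.4% and 42.2% of all tested genes, and the median was -0.24 on the log2 scale. Over input 6 were higher and 10 lower, beside 40.8% and 42.6%, with a median of -0.18. The H3.3 chaperone genes Hira (1.45 over IgG and 1.52 over input) and Ubn1 (2.03 and 1.998) were higher in the p-UPF1 libraries, as were the nucleosome assembly gene Nap1l4 (1.86 and 1.79) and Hjurp, the chaperone of the centromeric H3 (1.37 and 1.59). Asf1a (-2.11 and -2.70), Nasp (-1.77 and -1.96) and Npm1 (-2.38 and -2.76) were lower. The DNA replication chaperone genes Chaf1a (-0.32 over IgG) and Chaf1b (-1.05) were lower over IgG. Daxx, an H3.3 chaperone gene, did not pass the test (-0.10, adjusted P = 0.0712).

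The germline histone genes served as a background, since 8 of 10 had no count. H2bc1 and H1f6, testis genes within the clusters, were among the 8 at 0, and H2ac1 had 1 count, in an IgG library.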
